A study of Homo sapiens with 24 samples.

Results

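The 7 genes described here, of 18915 in the count table, are the regulators of the proteasome bounce-back response and of the KEAP1 pathway. They are the 3 transcription factor genes NFE2L1, NFE2L2 and NFE2L3, the processing enzyme genes DDI2 and NGLY1, and the genes of the KEAP1 adaptor and the BACH1 repressor. They were chosen by name for these roles, and all 7 were in the table and passed the filter on low counts. The question was how the transcripts of these regulators stood when the proteasome was inhibited, and whether nelfinavir or ISRIB altered that response.

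The cells were HepG2, an established human liver cancer line, and received for 10 h vehicle (DMSO), ISRIB at 50 nM, nelfinavir at 20 µM, bortezomib at 50 nM, or bortezomib at 50 nM together with nelfinavir at 20 µM or ISRIB at 50 nM. Bortezomib inhibits the proteasome, and ISRIB relieves the block on translation that follows phosphorylation of eIF2α. Nelfinavir is an HIV protease inhibitor that has also been reported to block the activation of NRF1 by DDI2. The authors used it to raise phosphorylated eIF2α, through inhibition of the phosphatase cofactor CReP, and with it the transcription factor ATF4. They reported that nearly all of the genes most raised by nelfinavir were known direct targets of ATF4. Each of the 6 groups had 4 replicates per the labels, described by the authors as biological, 24 libraries in all. They were made with a kit that reads the 3′ ends of polyadenylated RNA. Total counts per library ran from 5154533 to 6943164, and whether each read stands for a separate molecule is not known.

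NFE2L1 encodes NRF1, a factor anchored in the endoplasmic reticulum that is normally extracted and destroyed by the proteasome. When proteasome activity falls short, extracted NRF1 is stripped of its sugars by the N-glycanase NGLY1, cut by the protease DDI2 and moves to the nucleus, where it raises the genes of the proteasome itself, a reaction known as bounce-back. Its relative NRF2, encoded by NFE2L2, is held low by the ubiquitin ligase adaptor KEAP1 and turns on antioxidant genes through antioxidant response elements (ARE), which it binds with small MAF proteins and from which BACH1 represses the same genes; in hepatocytes this pathway guards against oxidants and drugs. Most of this control acts on the proteins, which were not measured here.

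The labelled identity of the cells was checked against hepatocyte genes. All 11 of the 11 hepatocyte markers were in the table, and their summed level ran from 15400 to 16800 CPM (counts scaled to a common library size) in DMSO, from 14600 to 15500 in ISRIB and from 15800 to 17300 in nelfinavir. It ran from 11400 to 12100 CPM in bortezomib, from 7600 to 9480 in bortezomib plus nelfinavir and from 11100 to 12300 in bortezomib plus ISRIB. The most abundant marker in DMSO was ALB, the albumin gene, at 3320 CPM ± 167 (SD, n = 4), and none of the 11 was at 0. Markers of immune, fibroblast, mural and endothelial cells were near the limit of detection, with 4 of 9 in the table, a summed level between 0.938 and 5.51 CPM in every library and CD68 as the most abundant. PTPRC, CD3E, PECAM1, VWF and CDH5 were not in the table, and COL1A1 had 0 counts in the 16 libraries of DMSO, ISRIB, nelfinavir and bortezomib. The summed level was thus lower in the bortezomib groups. Gene by gene, 7 of the 11 were called lower in bortezomib against DMSO (against 25.8% of all genes), while ALB was not (−0.19, adjusted p = 0.202) and TF had a higher value (0.18, adjusted p = 0.0931) that was reversed on library totals (−0.32). On library totals all 11 were called lower (against 49.4% of all genes). In bulk libraries fewer cells of a type and less RNA per cell cannot be told apart.

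All levels below are CPM scaled between libraries with TMM factors, and log2 fold changes are from the quasi-likelihood test of edgeR, with p-values adjusted by Benjamini-Hochberg over 12685 genes. The TMM factors ran from 1.187 to 1.24 in DMSO and from 0.8455 to 0.8694 in bortezomib, so the choice of scale mattered wherever bortezomib was added. Scaled on library totals alone, the median log2 fold change of all genes in bortezomib against DMSO was −0.495 in place of 0.0017, a shift of −0.497, and 19.2% of the called genes were higher in place of 51.6%. Mitochondrially encoded genes took up 21.5% ± 1.29 of all counts in DMSO, 33.8% ± 1.19 in bortezomib, 27.1% ± 2.26 in bortezomib plus nelfinavir and 36.1% ± 3.14 in bortezomib plus ISRIB (SD, n = 4 each). Where this choice turned a direction round, the gene and comparison are named.

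Of the 5 members called in bortezomib, the promoters of 3 are shown, those of the bounce-back factor NFE2L1 and the repressor BACH1, whose transcripts were higher, and of the NRF1 protease DDI2, whose transcript was lower. RefSeq gave start sites on GRCh38.p14 for all 7 members, and the 250 bases before the most upstream start are printed 5′ to 3′ on the strand of the gene. They are chr17:48048109-48048358 on the plus strand for NFE2L1, chr21:29298672-29298921 on the plus strand for BACH1 and chr1:15617208-15617457 on the plus strand for DDI2. Capitals mark matches on either strand to the motifs searched, which were the ARE core (TGACNNNGC, in 10.9% of 35116 such windows of all genes), the C/EBP-ATF composite (TGATGNAAT, in 0.888%), AP-1 (TGANTCA, in 6.57%), CRE (TGACGTCA, in 1.65%), the heat shock element (GAANNTTC, in 5.78%) and the CCAAT box (CCAAT, in 32%). The short letters GCGTG, searched as well and present in 32.2% of windows, are not capitalised.
NFE2L1: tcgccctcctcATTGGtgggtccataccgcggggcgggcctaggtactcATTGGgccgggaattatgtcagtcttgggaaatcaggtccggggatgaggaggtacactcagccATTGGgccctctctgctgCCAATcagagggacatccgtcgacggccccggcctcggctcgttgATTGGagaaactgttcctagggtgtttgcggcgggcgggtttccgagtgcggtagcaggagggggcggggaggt
BACH1: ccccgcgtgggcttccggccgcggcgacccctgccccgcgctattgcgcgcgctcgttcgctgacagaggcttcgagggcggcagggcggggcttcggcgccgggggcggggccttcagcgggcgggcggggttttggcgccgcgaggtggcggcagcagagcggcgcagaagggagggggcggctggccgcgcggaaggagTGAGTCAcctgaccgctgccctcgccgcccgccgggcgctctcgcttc
DDI2: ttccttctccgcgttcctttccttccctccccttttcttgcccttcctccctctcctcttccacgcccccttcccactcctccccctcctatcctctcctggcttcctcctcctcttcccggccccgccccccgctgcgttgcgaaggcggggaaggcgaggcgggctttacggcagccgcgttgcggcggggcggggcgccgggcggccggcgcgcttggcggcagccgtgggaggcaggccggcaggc
The NFE2L1 window held the CCAAT box 5 times, 1 of them on the strand shown and 4 as its complement ATTGG. The BACH1 window held 1 AP-1 match, TGAGTCA, 48 bases before the start, and the DDI2 window held none of the capitalised motifs. The most upstream window of each of the other 4 members, among them NGLY1 and NFE2L3, which were also called, held none of them either, and the only ARE cores were 2 in the window of the second KEAP1 start. These matches describe letters and not binding.

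In bortezomib against DMSO 5 of the 7 genes were called, in a comparison in which 6773 of 12685 genes were. NFE2L1, NGLY1 and BACH1 rose, and NFE2L3 and DDI2 fell, while NFE2L2 and KEAP1 did not pass the test. That is 3 of 7 members higher, where 27.6% of all genes tested were called higher, and 2 of 7 lower, where 25.8% were called lower. The median log2 fold change of the members was 0.26, beside 0.0017 for all genes tested. On library totals alone 1 member, BACH1, was called higher, where 11.7% of all genes were, and 3 were called lower, namely NFE2L3, DDI2 and KEAP1, where 49.4% of all genes were.

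**Figure D1:**
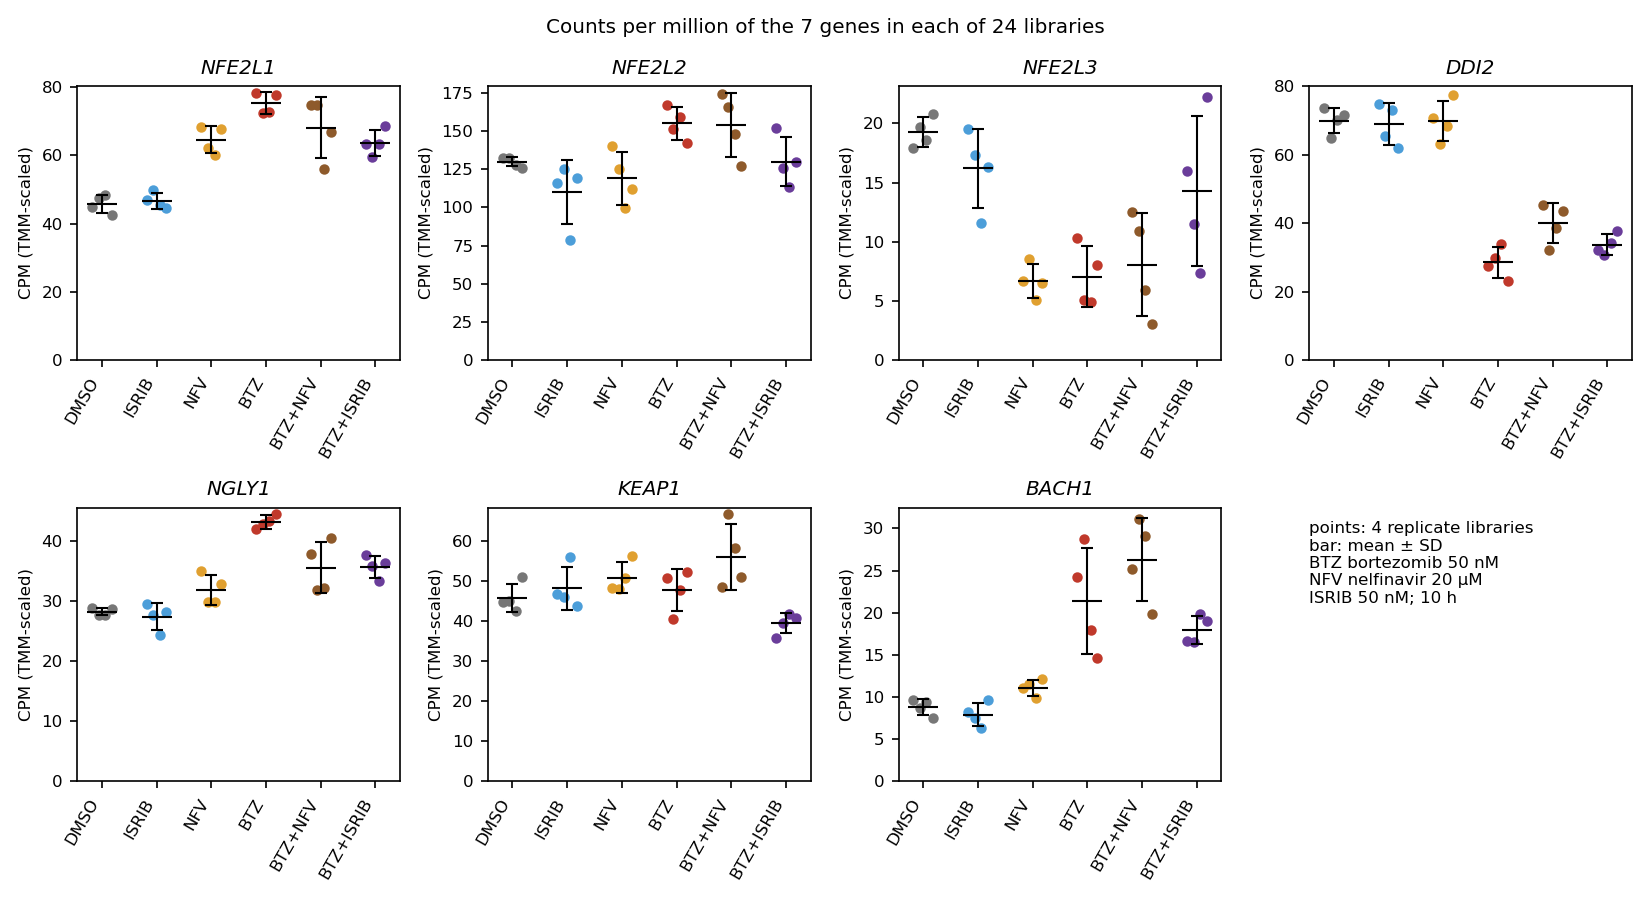
CPM (TMM-scaled counts, vertical axis) of the 7 genes in each of the 24 libraries by treatment group, with points for the 4 replicate libraries and bars for the mean ± SD. NFE2L1 and BACH1 stood higher and DDI2 lower in all 12 libraries with bortezomib than in the DMSO libraries on this scale, and on library totals the fold change of NFE2L1 was reversed where bortezomib was added to nelfinavir or to ISRIB.

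NFE2L1, the gene of the bounce-back factor itself (ENSG00000082641, GRCh37 chromosome 17, 46125691 to 46138907, plus strand), was lowest in DMSO and ISRIB. It stood at 44.9, 47.4, 48.4 and 42.4 CPM in DMSO replicates 1 to 4, at 47, 49.7, 45.3 and 44.5 in ISRIB and at 68.4, 62.1, 60.2 and 67.6 in nelfinavir. With bortezomib it stood at 78.3, 72.3, 72.7 and 77.8 CPM, with bortezomib and nelfinavir at 74.8, 74.7, 56 and 66.8, and with bortezomib and ISRIB at 63.2, 59.5, 63.4 and 68.6. All 16 libraries with nelfinavir or bortezomib lay above all 8 DMSO and ISRIB libraries, which overlapped with each other. In order of the means, bortezomib at 75.3 ± 3.21 was followed by bortezomib plus nelfinavir at 68.1 ± 8.89, nelfinavir at 64.6 ± 4.07, bortezomib plus ISRIB at 63.7 ± 3.76, ISRIB at 46.7 ± 2.31 and DMSO at 45.8 ± 2.7 (CPM ± SD, n = 4 each), and each overlapped the next except across the gap between bortezomib plus ISRIB and ISRIB.

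NFE2L1 rose in bortezomib by 0.72 ± 0.0972 on the log2 scale (estimate ± SE, adjusted p = 1.59e-07, higher in 4 of 4 libraries). On library totals alone the value was 0.22 (adjusted p = 0.0605) and no longer passed. NFE2L1 also rose in nelfinavir alone, by 0.50 ± 0.0959 (adjusted p = 0.000214), a comparison in which the scaling mattered little (0.47 on library totals). Adding bortezomib to ISRIB raised it by 0.45 ± 0.0981 (adjusted p = 0.00024), reversed to −0.095 on library totals, whereas adding bortezomib to nelfinavir gave 0.074 ± 0.0961 (adjusted p = 0.528), reversed to −0.44 on library totals (adjusted p = 0.000369). The responses to nelfinavir and bortezomib were thus less than additive on the log scale, and the test of that difference is given with the interactions.

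NFE2L3 encodes NRF3, a less studied relative of NRF1 that also starts in the endoplasmic reticulum (ENSG00000050344, chromosome 7, 26191818 to 26226757, plus strand). Its transcript stood at 17.9, 19.7, 18.6 and 20.8 CPM in DMSO, at 19.5, 17.3, 11.6 and 16.3 in ISRIB and at 6.69, 8.52, 5.06 and 6.49 in nelfinavir. In bortezomib it stood at 10.3, 5.04, 4.86 and 8 CPM, in bortezomib plus nelfinavir at 12.5, 10.9, 5.89 and 3, and in bortezomib plus ISRIB at 16, 11.5, 7.37 and 22.2. All nelfinavir and bortezomib libraries lay below all DMSO libraries, while bortezomib plus ISRIB spread over both ranges, with replicate 3 low and replicate 4 above every DMSO library. From DMSO (19.3 ± 1.28) through ISRIB (16.2 ± 3.36), bortezomib plus ISRIB (14.3 ± 6.36), bortezomib plus nelfinavir (8.07 ± 4.39) and bortezomib (7.04 ± 2.59) to nelfinavir (6.69 ± 1.42, CPM ± SD, n = 4 each), every group overlapped the next.

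NFE2L3 fell by 1.45 on the log2 scale in bortezomib (SE 0.3, adjusted p = 0.000116, lower in 4 of 4 libraries). In nelfinavir alone it fell by 1.52 (SE 0.285, adjusted p = 0.000148), and both calls held on library totals. These values rest on few reads, 133 to 170 counts per DMSO library and 23 to 48 per bortezomib library. Adding nelfinavir to bortezomib gave no further decrease (0.18 ± 0.331, adjusted p = 0.722), and adding bortezomib to nelfinavir gave 0.25 ± 0.316 (adjusted p = 0.519), with the sign reversed to −0.26 on library totals. Adding bortezomib to ISRIB gave −0.19 ± 0.282 (adjusted p = 0.581), and −0.75 on library totals (adjusted p = 0.019). Adding ISRIB to bortezomib raised NFE2L3 by 1.01 ± 0.315 (adjusted p = 0.0305). That call was lost without bortezomib replicate 2 (0.88, adjusted p = 0.0907), bortezomib replicate 3 (0.87, adjusted p = 0.092), the co-treated replicate 1 (0.94, adjusted p = 0.068) or the co-treated replicate 4 (0.72, adjusted p = 0.15), and when only the groups compared were fitted (1.01, adjusted p = 0.0579).

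NFE2L2, the NRF2 gene (ENSG00000116044, chromosome 2, 178083395 to 178257484, minus strand), had groups that lay close together. It stood at 132, 132, 128 and 126 CPM in DMSO, at 116, 125, 78.9 and 119 in ISRIB and at 140, 125, 99.8 and 112 in nelfinavir. In bortezomib it stood at 167, 151, 159 and 142 CPM, in bortezomib plus nelfinavir at 174, 166, 148 and 127, and in bortezomib plus ISRIB at 152, 126, 113 and 130. The 4 bortezomib libraries lay above the 4 DMSO libraries, ISRIB replicate 3 was the lowest of the 24 libraries, and the other groups overlapped DMSO except ISRIB, which lay just below it. The means ran from bortezomib (155 ± 10.7) through bortezomib plus nelfinavir (154 ± 20.7), DMSO (130 ± 2.83), bortezomib plus ISRIB (130 ± 16.3) and nelfinavir (119 ± 17.4) to ISRIB (110 ± 20.8, CPM ± SD, n = 4 each), each overlapping the next.

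NFE2L2 did not pass the test in bortezomib (log2 fold change 0.26 ± 0.118, adjusted p = 0.066), and the sign was reversed on library totals (−0.24). It passed with a replicate block (adjusted p = 0.03) and when only the groups compared were fitted (adjusted p = 0.00988). It rose when bortezomib was added to nelfinavir, by 0.37 ± 0.119 (adjusted p = 0.00869), but was reversed to −0.15 on library totals and lost the call without nelfinavir replicate 3 (0.29, adjusted p = 0.051) and with upper-quartile factors (0.27, adjusted p = 0.0514). Added to ISRIB, bortezomib gave 0.25 ± 0.12 (adjusted p = 0.0765), reversed to −0.30 on library totals (adjusted p = 0.0372) and called higher with a replicate block (adjusted p = 0.0345).

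DDI2, whose product is the protease that cuts NRF1 (ENSG00000197312, chromosome 1, 15943953 to 15995539, plus strand), was low wherever bortezomib was present. Its level was 73.6, 65, 70.1 and 71.5 CPM in DMSO, 74.9, 65.5, 73 and 62 in ISRIB and 70.8, 63.2, 68.3 and 77.4 in nelfinavir. It was 27.6, 29.7, 34 and 23.1 CPM in bortezomib, 45.4, 32.2, 38.7 and 43.5 in bortezomib plus nelfinavir and 32.3, 30.6, 34.3 and 37.8 in bortezomib plus ISRIB. The 12 libraries with bortezomib lay below the 12 without it, with a wide gap between the lowest nelfinavir- or ISRIB-only library and the highest co-treated library. Among the groups without bortezomib DMSO (70 ± 3.66), nelfinavir (69.9 ± 5.88) and ISRIB (68.9 ± 6.12) overlapped, and below them bortezomib plus nelfinavir (40 ± 5.89), bortezomib plus ISRIB (33.7 ± 3.09) and bortezomib (28.6 ± 4.52) each overlapped the next (CPM ± SD, n = 4 each).

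DDI2 fell by 1.29 on the log2 scale in bortezomib (SE 0.119, adjusted p = 5.29e-11, lower in 4 of 4 libraries). It fell by 0.80 when bortezomib was added to nelfinavir (SE 0.116, adjusted p = 4.3e-07) and by 1.03 when it was added to ISRIB (SE 0.118, adjusted p = 5.88e-09). These 3 comparisons use separate libraries, and on library totals the values were −1.79, −1.31 and −1.57. Nelfinavir alone left it at −0.0021 ± 0.11 (adjusted p = 0.996). With bortezomib present, nelfinavir raised DDI2 by 0.48 ± 0.124 (adjusted p = 0.00332), a call that missed the threshold when only the groups compared were fitted (0.47, adjusted p = 0.0515).

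NGLY1, the gene of the N-glycanase that acts on extracted NRF1 (ENSG00000151092, chromosome 3, 25760435 to 25831530, minus strand), moved the other way. Its level was 28.8, 27.6, 27.7 and 28.6 CPM in DMSO, 29.4, 27.7, 24.3 and 28.2 in ISRIB and 34.9, 29.8, 29.8 and 32.8 in nelfinavir. It was 41.9, 42.7, 43.3 and 44.5 CPM in bortezomib, 37.8, 31.8, 32.2 and 40.4 in bortezomib plus nelfinavir and 37.6, 35.8, 33.3 and 36.3 in bortezomib plus ISRIB. The 4 bortezomib libraries lay above the other 20, and both co-treatments lay between them and DMSO. Bortezomib (43.1 ± 1.1) was separated from bortezomib plus ISRIB (35.7 ± 1.82), which overlapped bortezomib plus nelfinavir (35.5 ± 4.22), which overlapped nelfinavir (31.8 ± 2.47), and below a gap DMSO (28.2 ± 0.608) and ISRIB (27.4 ± 2.19) overlapped (CPM ± SD, n = 4 each).

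NGLY1 rose in bortezomib by 0.61 ± 0.108 on the log2 scale (adjusted p = 1.36e-05, higher in 4 of 4 libraries), but by 0.11 on library totals, where it did not pass (adjusted p = 0.399). It rose when bortezomib was added to ISRIB, by 0.38 ± 0.11 (adjusted p = 0.00377), reversed to −0.16 on library totals and not called without the filter on low counts (0.30, adjusted p = 0.1). Added to nelfinavir, bortezomib gave 0.16 ± 0.108 (adjusted p = 0.211), reversed to −0.35 on library totals (adjusted p = 0.00972). Nelfinavir on top of bortezomib gave −0.28 ± 0.109 (adjusted p = 0.0555), which lay close to the threshold and passed in 7 of 17 alternative settings. Bortezomib thus had opposite effects on the transcripts of the glycanase and the protease of the same route, with the rise of NGLY1 resting on scales set by a typical gene.

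KEAP1 encodes the adaptor through which the CUL3 ligase destroys NRF2 (ENSG00000079999, chromosome 19, 10596801 to 10614234, minus strand). Its level was 44.7, 45, 42.5 and 50.9 CPM in DMSO, 46.7, 46.1, 56.1 and 43.9 in ISRIB and 48.3, 47.9, 50.7 and 56.3 in nelfinavir. It was 50.7, 40.5, 47.7 and 52.3 CPM in bortezomib, 48.4, 66.8, 58.2 and 50.9 in bortezomib plus nelfinavir and 35.8, 39.6, 41.7 and 40.7 in bortezomib plus ISRIB. Only bortezomib plus ISRIB lay below all DMSO libraries, and bortezomib replicate 2 fell within its range. The means ran from bortezomib plus nelfinavir (56 ± 8.26) through nelfinavir (50.8 ± 3.9), ISRIB (48.2 ± 5.4), bortezomib (47.8 ± 5.21) and DMSO (45.8 ± 3.56) to bortezomib plus ISRIB (39.5 ± 2.56, CPM ± SD, n = 4 each), with overlap between all neighbours but the last pair.

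KEAP1 gave 0.060 ± 0.114 in bortezomib (adjusted p = 0.683), and on library totals it was called lower (−0.44, adjusted p = 0.00122). When bortezomib was added to ISRIB it fell by 0.29 (SE 0.116, adjusted p = 0.0359), and the call was lost without ISRIB replicate 3 (−0.21, adjusted p = 0.148). Added to nelfinavir, bortezomib gave 0.14 ± 0.113 (adjusted p = 0.295), reversed to −0.37 on library totals (adjusted p = 0.00465).

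BACH1, the gene of the repressor at antioxidant response elements (ENSG00000156273, chromosome 21, 30566392 to 31003071, plus strand), was low without bortezomib. Its level was 9.64, 8.72, 9.38 and 7.48 CPM in DMSO, 8.2, 7.48, 6.35 and 9.61 in ISRIB and 11.1, 11.5, 9.86 and 12.1 in nelfinavir. It was 24.2, 28.7, 18 and 14.7 CPM in bortezomib, 25.2, 31.1, 29.1 and 19.9 in bortezomib plus nelfinavir and 16.7, 16.5, 19.8 and 19 in bortezomib plus ISRIB. The 12 bortezomib libraries lay above the 12 others, and the nelfinavir libraries lay just above DMSO without overlap. Bortezomib plus nelfinavir (26.3 ± 4.94), bortezomib (21.4 ± 6.27) and bortezomib plus ISRIB (18 ± 1.64) each overlapped the next. The co-treatments did not overlap each other, at 19.9 to 31.1 CPM with nelfinavir and 16.5 to 19.8 with ISRIB. Nelfinavir alone (11.1 ± 0.935) was separated from all groups with bortezomib and from DMSO (8.8 ± 0.967). DMSO overlapped ISRIB (7.91 ± 1.37, CPM ± SD, n = 4 each).

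BACH1 rose in bortezomib by 1.28 ± 0.186 on the log2 scale, 2.43-fold (adjusted p = 5.64e-07, higher in 4 of 4 libraries). Adding bortezomib to nelfinavir raised it by 1.24 ± 0.18 (adjusted p = 5.44e-07) and adding it to ISRIB by 1.18 ± 0.191 (adjusted p = 3.54e-06). On library totals the values were 0.79, 0.72 and 0.64, and all 3 still passed. Nelfinavir alone gave 0.34 ± 0.187 (adjusted p = 0.235), so the lack of overlap did not amount to a call. BACH1 was the only one of the 7 genes called higher on all 3 backgrounds, and DDI2 the only one called lower on all 3, and both held in 17 of 17 alternative settings on each background.

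**Figure D2:**
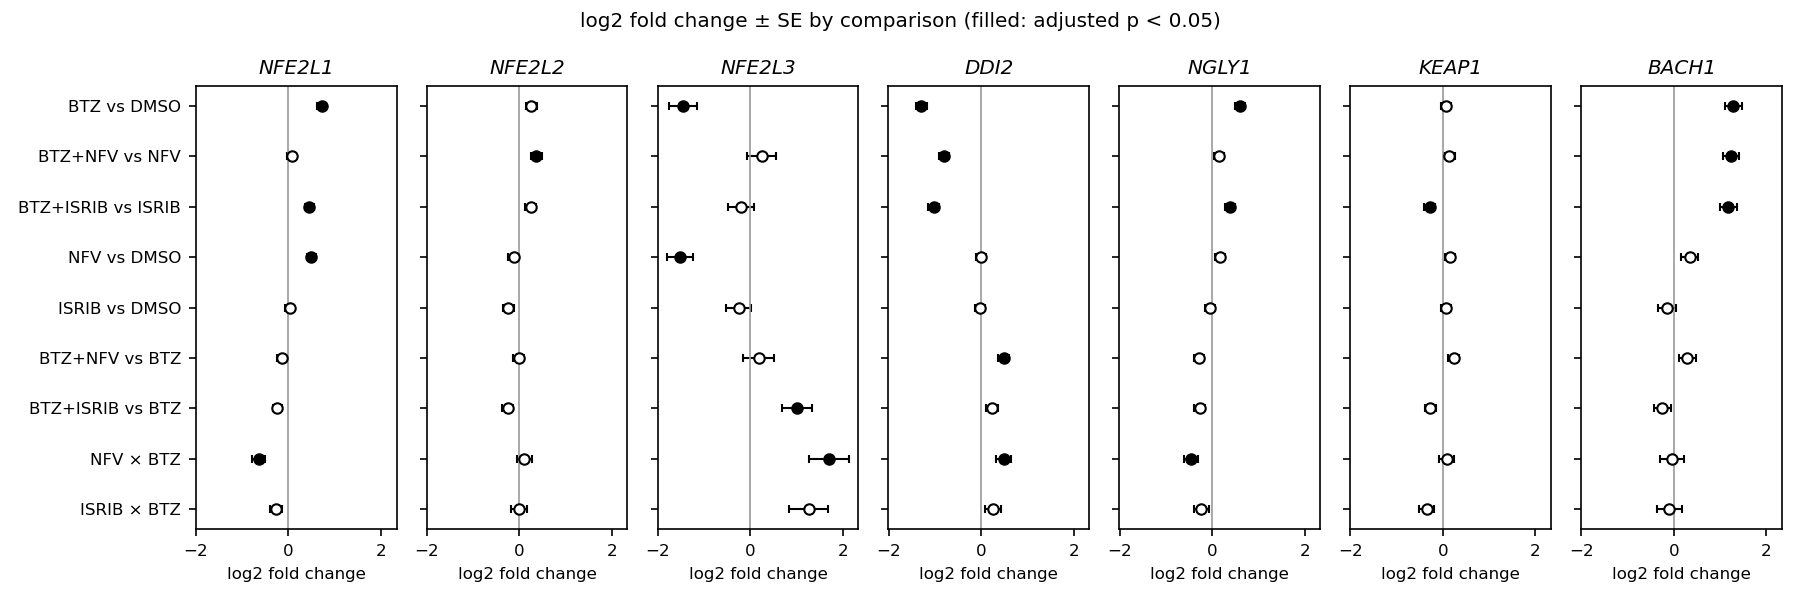
Log2 fold change with its standard error (horizontal axis) of each of the 7 genes in 9 comparisons, with filled points for adjusted p under 0.05. The 3 upper comparisons add bortezomib to DMSO, nelfinavir or ISRIB, where BACH1 was higher and DDI2 lower each time, while on library totals NFE2L1, NFE2L2 and NGLY1 were reversed in BTZ+NFV vs NFV and BTZ+ISRIB vs ISRIB, NFE2L2 and KEAP1 in BTZ vs DMSO, and NFE2L3 and KEAP1 in BTZ+NFV vs NFV.

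The comparisons differ in which libraries they share. Bortezomib, nelfinavir and ISRIB against DMSO share the DMSO libraries, and both co-treatments against bortezomib share the bortezomib libraries, whereas the effect of bortezomib on the DMSO, nelfinavir and ISRIB backgrounds rests on separate libraries. On the nelfinavir background 2 of 7 members, NFE2L2 and BACH1, were called higher, where 28.7% of all genes were, and 1, DDI2, was called lower, where 28.4% were. On the ISRIB background 3 members, NFE2L1, NGLY1 and BACH1, were called higher, where 29.1% of all genes were, and 2, DDI2 and KEAP1, lower, where 25.6% were. On library totals these counts became 1 higher and 4 lower on either background, where 12.5% of all genes were higher and 51.4% lower with nelfinavir and 12.1% and 50.4% with ISRIB.

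Nelfinavir alone changed NFE2L1 and NFE2L3. These are 1 of 7 members higher, where 10.4% of all genes were called higher, and 1 lower, where 8.84% were called lower, and the members' median log2 fold change was 0.15 beside 0.0070 for all genes. Added to bortezomib, nelfinavir raised 1 member, DDI2, where 15.6% of all genes were called higher. By edgeR's test 0 members were called lower in that comparison, where 13.4% of all genes were, with 1 member, NGLY1, at an unadjusted p under 0.05 and 1 called by DESeq2. All 11 hepatocyte markers had lower values in bortezomib plus nelfinavir than in bortezomib alone, 9 of them called (against 13.4% of all genes). With ISRIB added to bortezomib 4 of the 11 were called higher and 2 lower (against 6.91% and 5.34% of all genes). The part of these shifts in the members' values was not tested.

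ISRIB alone moved none of the 7. By edgeR's test 0 members were called higher and 0 lower, against 0% of all genes in each direction, and 1 member had an unadjusted p under 0.05, NFE2L2 at −0.24 ± 0.118 (adjusted p = 0.896). In all, 703 of 12685 genes had an unadjusted p under 0.05, and DESeq2 called 1 gene higher and 20 lower, with 0 members among them. Added to bortezomib, ISRIB raised 1 member, NFE2L3, where 6.91% of all genes were called higher. By edgeR's test 0 members were called lower, where 5.34% of all genes were, while NFE2L1, NFE2L2, NGLY1 and KEAP1 had an unadjusted p under 0.05 with log2 fold changes from −0.28 to −0.24, and DESeq2 called 1, NFE2L1 (−0.25, adjusted p = 0.0489).

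The interaction test asks whether the change on adding nelfinavir or ISRIB differed with and without bortezomib. For nelfinavir, 2 members were called higher, where 9.74% of all genes were, and 2 lower, where 10% were. NFE2L1 had the value −0.64 ± 0.137 (adjusted p = 0.000834), since nelfinavir raised it in DMSO and not in bortezomib. NFE2L3 had 1.70 ± 0.437 (adjusted p = 0.00505), since nelfinavir lowered it in DMSO and not in bortezomib. Both passed in 25 of 25 alternative settings. DDI2 (0.49 ± 0.166, adjusted p = 0.0352) passed in 19 of 25 and NGLY1 (−0.45 ± 0.153, adjusted p = 0.0334) in 11 of 25. The DDI2 call was lost without DMSO replicate 1 (0.46, adjusted p = 0.0684), 3 (0.48, adjusted p = 0.0537) or 4 (0.48, adjusted p = 0.0589), nelfinavir replicate 2 (0.44, adjusted p = 0.0744) or 3 (0.47, adjusted p = 0.0591), or bortezomib replicate 4 (0.45, adjusted p = 0.0578). The NGLY1 call was lost without DMSO replicate 2, 3 or 4, nelfinavir replicate 1 or 4, any of the 4 bortezomib replicates or replicate 1, 2 or 3 of bortezomib plus nelfinavir, with values from −0.46 to −0.35 and adjusted p from 0.0501 to 0.126. It was also lost without the filter on low counts (−0.40, adjusted p = 0.225) and with only the groups compared (−0.43, adjusted p = 0.0595).

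For ISRIB, edgeR's interaction test called 0 members higher, where 2.93% of all genes were called, and 0 lower, where 1.89% were. An unadjusted p under 0.05 was reached by 2 members, NFE2L3 (1.26 ± 0.412, adjusted p = 0.0707) and KEAP1 (−0.35 ± 0.163, adjusted p = 0.246). NFE2L3 was called in 6 of 25 alternative settings, by DESeq2 (1.25, adjusted p = 0.04), with a replicate block (1.29, adjusted p = 0.0349), without the filter on low counts (1.26, adjusted p = 0.00283), with only the groups compared (1.25, adjusted p = 0.0304), without bortezomib replicate 1 (1.49, adjusted p = 0.0357) and without replicate 3 of bortezomib plus ISRIB (1.48, adjusted p = 0.0158).

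Ratios of read counts within a library do not depend on how libraries are scaled. NFE2L1 counts per DDI2 count were 0.656 ± 0.0649 in DMSO, with a range of 0.593 to 0.729, 0.682 ± 0.0682 in ISRIB and 0.926 ± 0.0558 in nelfinavir (SD, n = 4 each). With bortezomib the ratio was 2.69 ± 0.531, with a range of 2.14 to 3.36, with bortezomib and nelfinavir 1.74 ± 0.396, and with bortezomib and ISRIB 1.89 ± 0.0706. All 12 bortezomib libraries lay above the 12 others, and nelfinavir lay above DMSO without overlap. NFE2L2 counts per BACH1 count, the activator against the repressor at the same elements, had lower means in the groups with bortezomib. They were 14.9 ± 1.52 in DMSO, 13.9 ± 2.04 in ISRIB and 10.7 ± 1.43 in nelfinavir, and 7.69 ± 1.99 in bortezomib, 5.94 ± 0.857 in bortezomib plus nelfinavir and 7.33 ± 1.42 in bortezomib plus ISRIB. The DMSO range of 13.7 to 16.9 did not meet the nelfinavir range of 9.28 to 12.6 or the bortezomib range of 5.27 to 9.69. The nelfinavir and bortezomib ranges overlapped each other. NFE2L2 per KEAP1 count overlapped between DMSO (2.85 ± 0.246) and bortezomib (3.27 ± 0.415). It also overlapped between nelfinavir (2.37 ± 0.467) and bortezomib plus nelfinavir (2.78 ± 0.537). The ISRIB range of 1.41 to 2.71 narrowly missed the bortezomib plus ISRIB range of 2.72 to 4.25. A ratio shows unequal change and not which gene changed.

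**Figure D3:**
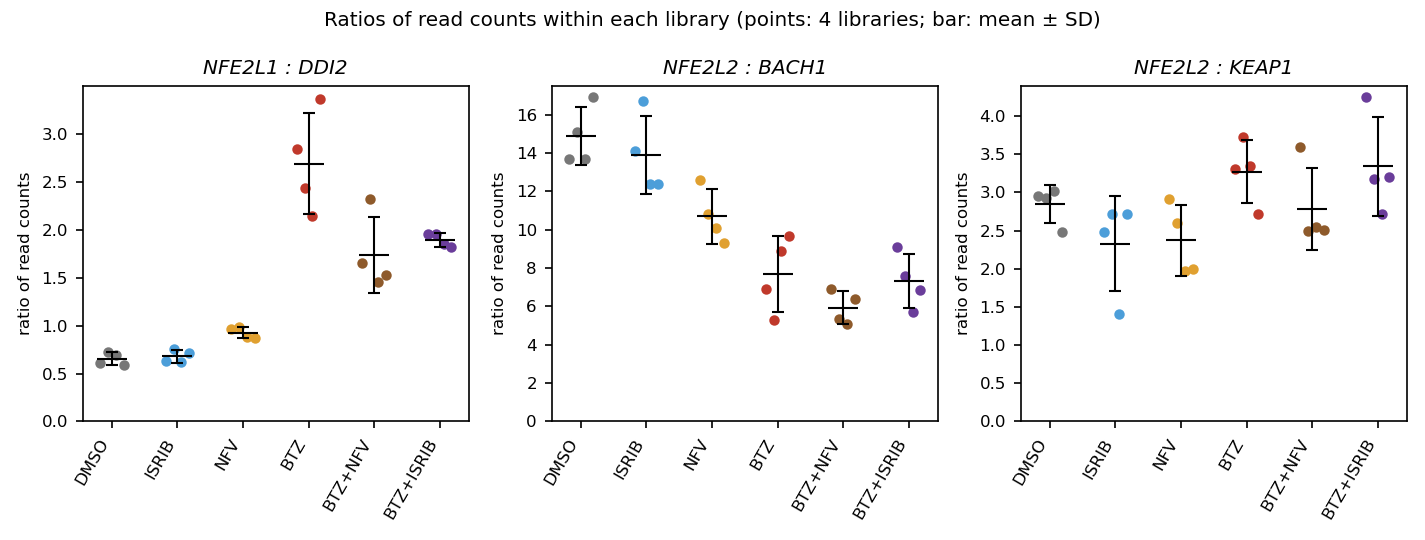
Ratios of read counts of 2 genes in the same library (vertical axis) by treatment group, with points for the 4 replicate libraries and bars for the mean ± SD. The NFE2L1 to DDI2 ratio was at least 1.45 in every bortezomib library and at most 0.982 in every other library. The mean NFE2L2 to BACH1 ratio was lower in each group with bortezomib than in each group without it, while single libraries of nelfinavir and bortezomib overlapped.

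The other genes of the pathway were followed in lists written for their roles. Of 5 partner factors that share the antioxidant response elements, 4 were tested, and BACH2 was not in the table. In bortezomib the 3 small MAF genes rose, MAFF by 2.55 on the log2 scale (adjusted p = 3.23e-16), MAFK by 2.30 (adjusted p = 3.98e-17) and MAFG by 1.94 (adjusted p = 8.75e-16), and these directions held on library totals. NFE2, a blood-cell relative of the NRF factors, fell by 3.78 (adjusted p = 1.64e-05), from 121 counts in the 4 DMSO libraries to 5 in the 4 bortezomib libraries. Nelfinavir alone raised the same 3 MAF genes, MAFG by 0.85, MAFF by 0.81 and MAFK by 0.65. Added to bortezomib, it raised MAFF by a further 1.66 (adjusted p = 6.15e-12), MAFK by 1.32 and MAFG by 0.94. MAFF thus stood at 8.84 ± 1.14 CPM in DMSO, 51.9 ± 8.26 in bortezomib and 164 ± 19.5 in bortezomib plus nelfinavir (SD, n = 4 each), and its interaction of nelfinavir with bortezomib was 0.85 (adjusted p = 0.00199). That of MAFK was 0.67 (adjusted p = 0.00317), and that of MAFG did not pass (0.081, adjusted p = 0.766).

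Of the genes that extract, process or destroy NRF1, 12 of 13 were in the table and tested, and DDI1 was not. In bortezomib 8 of the 12 rose (against 27.6% of all genes) and the other 4 did not pass, with a median log2 fold change of 0.52, beside 0.0017 for all genes. On library totals 4 were called higher and 1 lower (against 11.7% and 49.4% of all genes), with a median of 0.025. Among them was the extraction machinery, with NPLOC4 at 2.09 (adjusted p = 5.03e-19), UFD1L at 1.16 (adjusted p = 3.81e-13) and VCP, the ATPase that pulls proteins out of the membrane, at 0.85 (adjusted p = 1.14e-11), all higher on library totals too. OGT, the enzyme that adds a sugar to many nuclear proteins, rose by 1.05 in bortezomib and by 0.81 in nelfinavir. HCFC1 (0.53), SYVN1 (0.52) and RAD23B (0.49) rose on the TMM scale and were not called on library totals, where RAD23B changed sign (−0.012). SEL1L, the scaffold of the membrane ligase SYVN1, gave 0.14 in bortezomib (adjusted p = 0.2), with the sign reversed on library totals (−0.36, adjusted p = 0.00156). It rose when either drug was added to bortezomib, by 1.21 with nelfinavir (adjusted p = 2.27e-12) and by 1.24 with ISRIB (adjusted p = 4.61e-12). SYVN1 rose by 0.79 and 0.89 in the same comparisons, but nelfinavir alone also raised it, by 0.66 (adjusted p = 0.000446), and its interaction was 0.14 with nelfinavir (adjusted p = 0.665) and 0.95 with ISRIB (adjusted p = 0.00208), where ISRIB alone gave −0.056. The co-treatments share the bortezomib libraries, and the interactions for SEL1L were 1.11 with nelfinavir (adjusted p = 3.31e-08) and 1.36 with ISRIB (adjusted p = 6.55e-09). Nelfinavir added to bortezomib also raised VCP by 0.55, FBXW7, a ligase subunit that targets nuclear NRF1, by 0.82 and UFD1L by 0.23 (adjusted p = 0.037, not called on library totals), and lowered NPLOC4 by a log2 fold change of −0.29. ISRIB added to bortezomib raised VCP by 0.25 (adjusted p = 0.0183, not called on library totals) and lowered NPLOC4 (−0.32, adjusted p = 0.0157), while FBXW7 did not pass (0.45, adjusted p = 0.0627).

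The KEAP1 axis was tested in 9 of 9 genes, of which 4 rose and 2 fell in bortezomib (against 27.6% and 25.8% of all genes), with a median of 0.036. On library totals 1 was called higher and 5 lower (against 11.7% and 49.4% of all genes), with a median of −0.46. SQSTM1, whose product p62 binds KEAP1 and draws it into autophagy, rose by 2.07 (adjusted p = 1.04e-18), from 217 ± 17 CPM in DMSO to 911 ± 18.8 in bortezomib (SD, n = 4 each). In nelfinavir it rose by 1.02 (adjusted p = 2.27e-10), to 439 ± 78.6 CPM, and its interaction was −1.31 (adjusted p = 3.67e-09), with 743 ± 24 CPM in bortezomib plus nelfinavir. DPP3, another KEAP1 binding protein, rose by 0.68 in bortezomib but was not called on library totals (0.18), and GSK3B (0.33) and USP15 (0.41) rose on the TMM scale and changed sign on library totals (−0.17 and −0.085). RBX1, the ring subunit of the KEAP1 ligase, fell by 0.88 (adjusted p = 5.01e-06) and PALB2 by 0.65 (adjusted p = 0.0202), on both scales. CUL3, the scaffold of that ligase, gave 0.036 in bortezomib (adjusted p = 0.845) and was called lower on library totals (−0.46, adjusted p = 0.00392), and it fell by 0.44 in nelfinavir (adjusted p = 0.0175). CAND1 (−0.10) and PGAM5 (−0.16) did not pass in bortezomib and were called lower on library totals (−0.60 and −0.66).

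Of 42 proteasome subunit and assembly genes, the output of bounce-back, 36 rose in bortezomib and 1 fell (against 27.6% and 25.8% of all genes), with a median log2 fold change of 0.92. On library totals 26 were called higher and 6 lower (against 11.7% and 49.4% of all genes), with a median of 0.43. The 3 highest were PSMB1 at 2.58, PSMC4 at 2.01 and PSMD14 at 1.86. The 3 lowest were PSMG4 at −0.65, PSMD10 at −0.38 and PSMG1 at −0.20, of which PSMG4 was called (adjusted p = 0.000517). Added to nelfinavir, bortezomib raised 31 of the 42 and lowered 3 (against 28.7% and 28.4% of all genes, median 0.72), and added to ISRIB it raised 33 and lowered 2 (against 29.1% and 25.6% of all genes, median 0.66), while on library totals the counts were 19 higher and 8 lower with nelfinavir (against 12.5% and 51.4%, median 0.21) and 18 and 9 with ISRIB (against 12.1% and 50.4%, median 0.12). In nelfinavir alone, where NFE2L1 rose, 2 of the 42 were called higher and 3 lower (against 10.4% and 8.84% of all genes), with a median of −0.069, beside 0.0070 for all genes. When nelfinavir was added to bortezomib, 3 were called higher and 10 lower (against 15.6% and 13.4% of all genes, median −0.15), among the latter PSMB1 at −0.37 (adjusted p = 0.00352) and PSMD14 at −0.28 (adjusted p = 0.00254). When ISRIB was added, 1 was called higher and 8 lower (against 6.91% and 5.34% of all genes, median −0.19), with PSMD14 at −0.57 (adjusted p = 5.08e-07).

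Of 30 ARE target genes 27 were tested, and SRXN1, ME1 and CES1 did not pass the filter on low counts. In bortezomib 18 of the 27 rose (against 27.6% of all genes) and the other 9 did not pass (median 0.62), while on library totals 12 were called higher and 5 lower (against 11.7% and 49.4% of all genes, median 0.12). The highest were SLC7A11, the cystine transporter, at 3.74, TXNRD1, thioredoxin reductase, at 2.73 and GCLM, a subunit of the enzyme that starts glutathione synthesis, at 2.61, and the lowest were TXN at −0.095, ABCC3 at −0.049 and PRDX1 at −0.033, which did not pass. Nelfinavir alone raised 16 of the 27 (against 10.4% of all genes, median 0.38), with SLC7A11 at 3.12 (adjusted p = 5.61e-22) and GCLM at 0.87, while TXNRD1 did not pass (0.32, adjusted p = 0.181). When nelfinavir was added to bortezomib, 4 were called higher and 7 lower (against 15.6% and 13.4% of all genes), with a median of 0.019 that changed sign on library totals (−0.016). In the interaction of nelfinavir with bortezomib 15 of the 27 were called lower (against 10% of all genes; median −0.58, beside −0.025 for all genes), with SLC7A11 at −3.10 (adjusted p = 6.58e-18) and ABCC3 at −1.23 (adjusted p = 1.77e-07). SLC7A11 stood at 32.2 ± 2.39 CPM in DMSO, 280 ± 15 in nelfinavir, 432 ± 22.8 in bortezomib and 438 ± 73 in bortezomib plus nelfinavir (SD, n = 4 each). Whether ARE factors or ATF4 raised it was not tested.

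**Figure D4:**
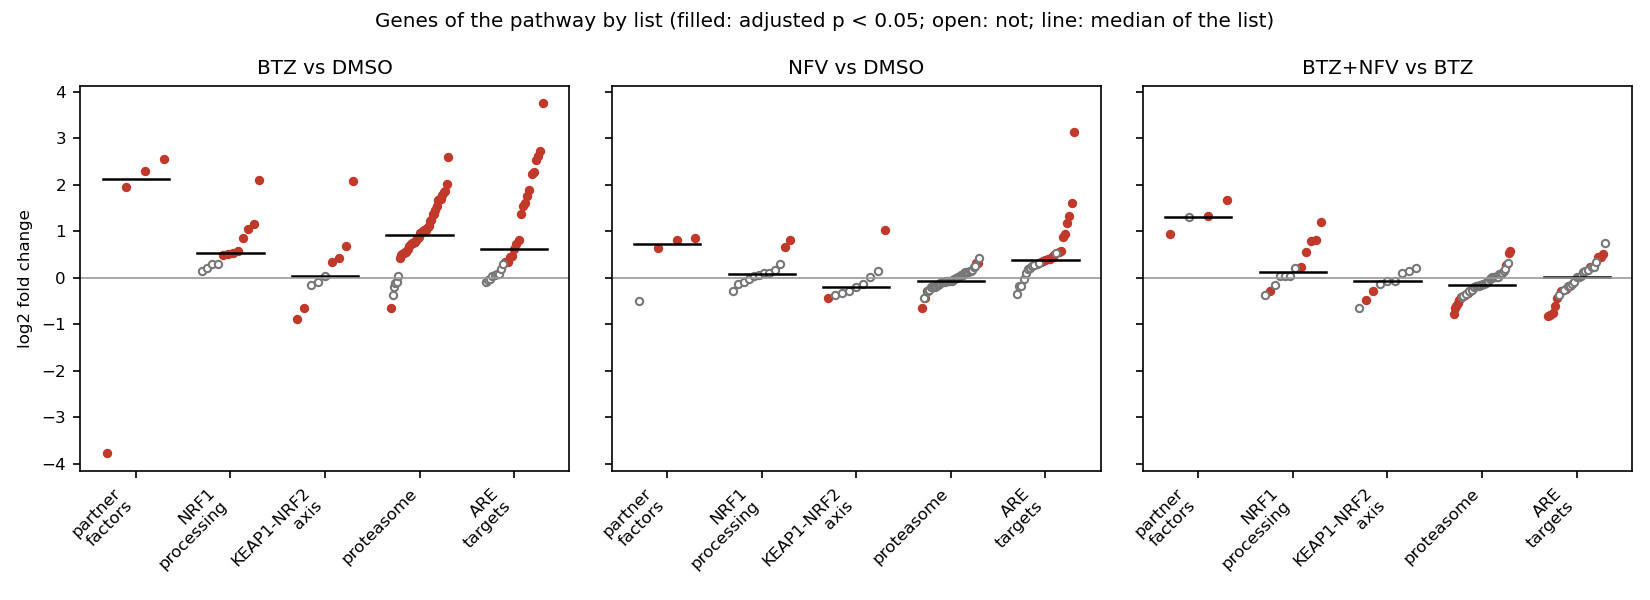
Log2 fold change (vertical axis) of each tested gene of 5 pathway lists in 3 comparisons, with filled points for adjusted p under 0.05 and a line at the median of the list. In BTZ vs DMSO the medians were 2.12 for partner factors, 0.52 for NRF1 processing, 0.036 for the KEAP1 axis, 0.92 for the proteasome and 0.62 for ARE targets, and on library totals they were 1.62, 0.025, −0.46 (a change of sign), 0.43 and 0.12, while the ARE median in BTZ+NFV vs BTZ changed sign from 0.019 to −0.016.

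The other scalings that set libraries on a typical gene gave values close to those above. Without the mitochondrially encoded genes, the bortezomib values against DMSO were 0.67 for NFE2L1, 0.57 for NGLY1, 1.24 for BACH1, −1.50 for NFE2L3 and −1.34 for DDI2, all still called. Library totals moved all 7 genes down by about the shift of the median gene.

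**Figure D5:**
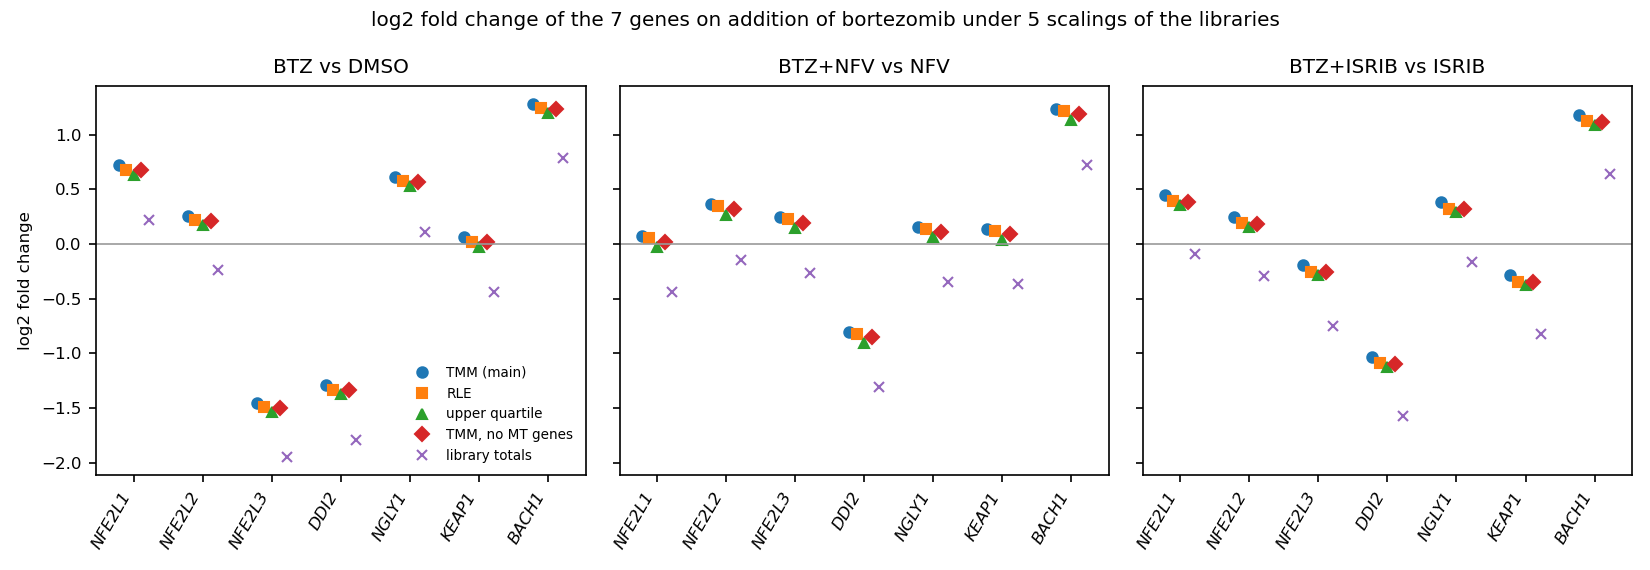
Log2 fold change (vertical axis) of the 7 genes on adding bortezomib to DMSO, nelfinavir or ISRIB, with 1 symbol for each of 5 scalings of the libraries. Library totals alone (crosses) lie about 0.5 below TMM in each panel, which reverses the sign of NFE2L2 and KEAP1 in the left panel, of NFE2L1, NFE2L2, NFE2L3, NGLY1 and KEAP1 in the middle panel and of NFE2L1, NFE2L2 and NGLY1 in the right panel.

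The genes whose pattern was most like that of each member were found by Pearson's r of log2 CPM over the 24 libraries, among 7890 genes with a mean of at least 10 CPM. The libraries form 6 groups of 4, so the points are not independent and r is a description. For NFE2L1 they were NBPF1 (0.976), DDIT4 (0.933) and SLC7A11 (0.93), and for BACH1 the closest were JMJD1C (0.968) and CSNK2A2 (0.955). For DDI2 they were TACC1 (0.96), RP11-130L8.2 (0.954) and LINC00261 (0.953), and for NGLY1 they were SULT1A2 (0.918), YDJC (0.908) and NEK1 (0.904). NFE2L3 was closest to MRPL33 (0.893), SNRPD3 (0.862) and PCNA (0.859), and NFE2L2 to PABPC1 (0.884), NFAT5 (0.856) and USP8 (0.844). KEAP1 had the weakest likeness, with SNHG8 (0.759), NDUFS3 (0.747) and MAL2 (0.733). The names depended on the measure, since by Spearman's rho 2 of the 3 genes were shared for NFE2L1, 1 each for NFE2L2, NFE2L3, KEAP1 and BACH1, and 0 for DDI2 and NGLY1, and on library totals 0 were shared for NFE2L1 and NGLY1.

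Some members share their exons with other counted genes on the opposite strand, and since the kit reads the forward strand but the strand setting of the counting is not given, reads in the shared stretches cannot be told apart. NFE2L2 overlaps HNRNPA3, which had 6771 counts in the DMSO libraries and 2610 in the bortezomib libraries (log2 fold change −0.66, adjusted p = 0.000629), and AGPS, with 1713 and 1506 counts (0.53, adjusted p = 2.76e-05, and 0.036 on library totals). It also overlaps AC079305.10, with 128 counts in all libraries (−0.67, adjusted p = 0.424). NFE2L3 overlaps HNRNPA2B1, which had 22383 counts in DMSO and 11184 in bortezomib (−0.29, adjusted p = 0.0205), many times the 608 and 134 counts of NFE2L3 itself. NGLY1 overlaps OXSM, with 205 counts in DMSO and 85 in bortezomib (−0.55, adjusted p = 0.21). BACH1 contains BACH1-IT2 on the same strand, with 113 counts in all, and RSC1A1 lies within DDI2 but was not in the table. The part of these neighbours in the members' counts was not tested.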

How the data were processed

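RNA was measured by 3′ end sequencing in 24 HepG2 libraries made with the QuantSeq FWD kit, which keeps the strand. The deposited values are raw read counts per gene, which the authors made by trimming reads with cutadapt 2.8, aligning them with STAR to hg19 within nf-core (RNA-Seq workflow 1.4.2) and counting them on genes of the GRCh37 annotation. The strand setting of the counting step and the use of molecular barcodes were not found in the labels or methods. Software was edgeR 4.0.16, DESeq2 1.42.0 and limma 3.58.1 under R 4.3.3, with plots drawn by Python 3.11.15, numpy 2.4.6, pandas 2.3.3 and matplotlib 3.10.9. Of 18915 genes, 12685 passed filterByExpr with a minimum count of 5 and a minimum total of 25. Libraries were scaled by TMM, and a single model of the 24 libraries with 1 term for each group was fitted by the quasi-likelihood method of edgeR. Genes were called at a Benjamini-Hochberg adjusted p under 0.05. The code was tested on simulated data. Total counts of 5154533 to 6943164 per library set the precision, and 3′ counts were not scaled by length.

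All 7 members were named, with genes of the partner, processing and KEAP1 lists, the 3 highest and 3 lowest proteasome and ARE target genes in bortezomib against DMSO, genes among the 3 most like each member (prior count 2 for log2 CPM, mean of at least 10 CPM), overlapping genes and cell type markers. The members and lists were chosen with earlier results of these data known. The alternatives were scaling by upper-quartile factors, by RLE, by library totals alone or by TMM factors without mitochondrially encoded genes, then testing by DESeq2, edgeR's default filter (10 and 15 counts) or none, a model of only the groups compared, replicate number as a block, and each library left out in turn. For likeness they were Spearman's rho and library totals.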

Additional observations from a re-analysis of the deposited data

Results flagged for a closer look

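For 4 genes the change on adding nelfinavir differed between cells with and without bortezomib by the interaction test. The difference was −0.64 on the log2 scale for NFE2L1 (adjusted p = 0.000834), 1.70 for NFE2L3 (adjusted p = 0.00505), 0.49 for DDI2 (adjusted p = 0.0352) and −0.45 for NGLY1 (adjusted p = 0.0334). Of 25 alternative settings NFE2L1 and NFE2L3 passed in 25, DDI2 in 19 and NGLY1 in 11. For NFE2L1 the change was 0.50 without and −0.15 with bortezomib, and for NFE2L3 it was −1.52 and 0.18. For DDI2 it was −0.0021 and 0.48, and for NGLY1 it was 0.18 and −0.28. Each of the 42 sets of 4 libraries, 7 genes in 6 groups, was also searched for a library far from the other 3 of its group, and 0 were found.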

How the results depend on the processing

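Across all 17 alternatives the calls of BACH1, DDI2 and NFE2L3 in bortezomib against DMSO held, with log2 fold changes from 0.79 to 1.37, from −1.79 to −1.26 and from −1.95 to −1.37, as did those of NFE2L1 and NFE2L3 in nelfinavir. Library totals alone, which assume equal RNA output per library, reversed 8 values that were called on at least 1 of the scales. These were KEAP1 (−0.44) in bortezomib against DMSO, NFE2L1 (−0.44), NFE2L2 (−0.15), NGLY1 (−0.35) and KEAP1 (−0.37) on adding bortezomib to nelfinavir, and NFE2L1 (−0.095), NFE2L2 (−0.30) and NGLY1 (−0.16) on adding it to ISRIB. The scale of true RNA content was not measured, and the cause was not tested. Over all alternatives together, 40 member values that passed in neither setting changed sign, 2 of them on library totals, NFE2L2 in bortezomib against DMSO (−0.24) and NFE2L3 on adding bortezomib to nelfinavir (−0.26).

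On library totals the number of members called higher moved to 1 in bortezomib against DMSO, and on adding bortezomib to nelfinavir or to ISRIB to 1 higher and 4 lower. On that scale 1 member was called lower in each co-treatment against bortezomib, NGLY1 with nelfinavir and NFE2L1 with ISRIB. Upper-quartile factors gave 1 member lower in bortezomib plus nelfinavir against bortezomib and 1 higher against nelfinavir. Leaving out mitochondrially encoded genes, edgeR's default filter, DESeq2 and the replicate block each gave 1 lower, NGLY1, in bortezomib plus nelfinavir against bortezomib. DESeq2 also gave 1 lower in bortezomib plus ISRIB against bortezomib. DESeq2, no filter, only the groups compared and the replicate block each gave 1 higher, NFE2L3, in the ISRIB interaction. No filter and only the groups compared each gave 1 lower in the nelfinavir interaction. Only the groups compared gave 0 higher in either co-treatment against bortezomib. In these the cause was not tested.

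With each library left out in turn, the members called higher and lower in bortezomib against DMSO stayed at 3 and 2, and in nelfinavir at 1 and 1. They ranged from 1 to 2 higher and 0 to 1 lower in bortezomib plus nelfinavir against bortezomib, from 0 to 1 higher in bortezomib plus ISRIB against bortezomib, from 1 to 2 higher on adding bortezomib to nelfinavir, from 3 to 4 higher and 1 to 2 lower on adding it to ISRIB, from 1 to 2 in each direction in the nelfinavir interaction and from 0 to 1 higher in the ISRIB interaction. Nelfinavir added to bortezomib gained BACH1 without bortezomib replicate 2 (0.51, adjusted p = 0.0368), KEAP1 without co-treated replicate 1 (0.34, adjusted p = 0.0333) and NGLY1 without co-treated replicate 4 (−0.31, adjusted p = 0.0486). NFE2L2 was gained on adding bortezomib to ISRIB without ISRIB replicate 2 (0.32, adjusted p = 0.0402).

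Numbers of all genes called differed by over 1.5 times on library totals, with 1490 higher and 6266 lower in bortezomib against DMSO (3498 and 3275 on TMM), 1584 and 6518 on adding it to nelfinavir (3639 and 3600) and 1532 and 6397 on adding it to ISRIB (3694 and 3243). With only the groups compared they were 1948 lower in nelfinavir (1121), 1284 higher and 962 lower on adding nelfinavir to bortezomib (1975 and 1694), and 510 and 357 on adding ISRIB (876 and 677). In the ISRIB interaction DESeq2 called 436 lower (240). For ISRIB against DMSO, with 0 called by edgeR's test, 1 and 20 were called by DESeq2, 5 and 34 without a filter and 4 and 76 with only the groups compared. Replicate numbers are not known to mark shared cultures. After removal of group means, correlations exceeded 0.1 in 17 of 60 same-numbered pairs (median 0.0344) and in 38 of 180 pairs with unlike numbers (median −0.0184). With 4 libraries a group and 16 to 59 NFE2L3 counts per library of bortezomib plus nelfinavir, the smallest change that could be detected was not calculated.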
